A study of Homo sapiens with 9 samples.

Results

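The aminoacyl-tRNA synthetase genes of EPC2 cells were followed across a transfection experiment with the forkhead transcription factor FOXF1. They were taken from the deposited count table by gene symbol and protein-coding biotype. The symbols matched 45 rows, of which 36 lay on the primary assembly. The other 9 rows were alternate-locus copies of VARS and VARS2 and held 0 reads in every library. The 36 genes, of 64253 in the table, comprised 16 mitochondrial enzymes, with symbols ending in 2, and 20 cytosolic ones. All 36 were among the 16366 genes that passed the filter on low counts.

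EPC2 is an established line that the labels describe as normal esophageal squamous cells, a description that the markers given below did not bear out. There were 3 groups of 3 libraries, labelled as biological triplicates. The first received a FOXF1 plasmid with a lipid reagent (FOXF1 plasmid cells, Fox in the labels). The next received an empty vector with that reagent (empty vector cells, Lipo). The last received neither (untreated cells, Ctrl). FOXF1 was introduced by transient transfection of 1 line, and the time between transfection and harvest is not given in the sources used here. In whole populations of cells, fewer cells of a type and less RNA per cell cannot be told apart.

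Aminoacyl-tRNA synthetases join each amino acid to its matching tRNA, the step that sets which residue a codon adds to a protein. Human cells keep a cytosolic set and a mitochondrial set, both encoded in the nucleus, and mostly by separate genes. GARS and KARS each supply both compartments, EPRS carries the glutamate and the proline enzyme in one chain, and FARSA and FARSB are the alpha and beta subunits of a single cytosolic enzyme. Several cytosolic members assemble into a multisynthetase complex, and several are known in mammals as targets of ATF4, the transcription factor of the integrated stress response, through C/EBP-ATF response elements near their start sites.

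Total counts per library ran between 34390666 and 39973289. FOXF1 itself was counted at 367, 184 and 141 reads in FOXF1 plasmid cells, at 0, 0 and 6 reads in empty vector cells, and at 1, 0 and 0 reads in untreated cells. Reads of mitochondrially encoded genes made up 14.1% ± 0.517 of counts in FOXF1 plasmid cells, 11.2% ± 0.761 in empty vector cells and 20.9% ± 2.0 in untreated cells (SD, n = 3 each). The labelled squamous identity was not borne out by the 10 squamous markers it was checked against. Of these, 8 were below 1 CPM (counts per 1000000 counted reads) in every library, with TP63 and SPRR1B at 0 reads, and the list summed to 2.24 to 3.63 CPM in FOXF1 plasmid cells, 3.30 to 4.75 CPM in empty vector cells and 3.31 to 3.94 CPM in untreated cells. A list of 6 simple-epithelium genes summed to 4021 to 4159 CPM in FOXF1 plasmid cells, 3815 to 4041 CPM in empty vector cells and 3794 to 4124 CPM in untreated cells. Keratins carried that sum, with medians over all libraries of 1121 CPM for KRT7, 1430 for KRT8, 1290 for KRT18 and 156.3 for KRT19. EPCAM and CDH1 had medians of 4.48 and 8.79 CPM. A list of 6 fibroblast genes summed to 2382 to 2604 CPM in FOXF1 plasmid cells, 2406 to 2537 CPM in empty vector cells and 1824 to 2020 CPM in untreated cells. Of these genes, COL1A2 and LUM were at 0 reads and DCN was below 1 CPM in every library. COL1A1 and VIM carried the sum, with medians of 1586 and 808.4 CPM, beside 55.1 CPM for PDGFRB. These sums and medians use library totals, on which the median gene tested was itself 0.29 higher on the log2 scale in empty vector than in untreated cells. The part of the fibroblast genes in the results was not tested. All 3 leukocyte markers were at 0 reads and all 3 endothelial markers below 1 CPM in every library.

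The stretches below are shown because they carry the core letters of the C/EBP-ATF response element near synthetase start sites. Windows of 250 bases before to 50 bases after the start were available from RefSeq (GRCh38.p14) for 30 of the 36 genes, 16 cytosolic and 14 mitochondrial, with more than 1 window where a gene has several starts. The letters TGATGCAA were searched on both strands. They stood in a window of 6 of these 16 cytosolic genes (37.5%) and of 0 of the 14 mitochondrial genes, against 295 of 27305 genes with a window (1.08%). Each stretch is printed 5′ to 3′ on the strand that reads TGATGCAA, with those letters in capitals.
AARS, chr16:70289675-70289704, plus strand: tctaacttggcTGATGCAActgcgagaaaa
CARS, chr11:3057407-3057436, plus strand: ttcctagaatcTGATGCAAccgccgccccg
IARS, chr9:92293692-92293721, plus strand: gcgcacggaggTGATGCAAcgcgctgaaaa
MARS, chr12:57488053-57488082, minus strand: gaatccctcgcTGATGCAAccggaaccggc
NARS, chr18:57621804-57621833, minus strand: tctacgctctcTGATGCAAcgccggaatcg
TARS, chr5:33440956-33440985, minus strand: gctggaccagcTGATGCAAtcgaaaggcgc

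In CARS, IARS, MARS, NARS and TARS the letters lay between positions -13 and 22 relative to the start, and in AARS they began at position -187. In NARS they were on the gene's own strand, and in the other 5 genes on the opposite strand. With any base allowed at the sixth position (TGATGNAA, which includes every TGATGCAA match), 7 of 16 cytosolic genes (43.8%) and 1 of 14 mitochondrial genes (7.14%) had a match, against 1217 of 27305 genes (4.46%). The 2 genes added by the looser search were GARS and YARS2, printed here with the matched letters in capitals for comparison with the first 6.
GARS, chr7:30594834-30594863, minus strand: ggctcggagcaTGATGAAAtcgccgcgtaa
YARS2, chr12:32756076-32756105, minus strand: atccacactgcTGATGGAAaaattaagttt

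In untreated cells the 11 highest members were all cytosolic, whereas DARS, LARS, NARS, EPRS, TARS and CARS (3.31 to 5.53) lay among the lower mitochondrial ones. Levels between genes were compared as CPM per kilobase of annotated exon. FARSA led with 136.1 ± 11.1 CPM per kb, followed by AARS, the alanine enzyme, with 74.1 ± 0.844, and by QARS, the glutamine enzyme, with 68.2 ± 3.51 (SD, n = 3 each). The libraries of FARSA, AARS, QARS and GARS (52.3 ± 5.64 CPM per kb) did not overlap between neighbours in that order, whereas those of GARS, VARS (45.3 ± 4.79) and WARS (42.3 ± 1.18) overlapped between neighbours. FARSB, the partner subunit of FARSA, stood at 15.1 ± 2.22 CPM per kb and overlapped EARS2, the mitochondrial glutamate enzyme, which was the highest mitochondrial member with 14.0 ± 0.526. At the bottom, YARS2, WARS2 and MARS2, the mitochondrial tyrosine, tryptophan and methionine enzymes, averaged 1.25 ± 0.136, 1.02 ± 0.323 and 0.827 ± 0.241 CPM per kb, with overlap between neighbours in that order. Exon length was the union of all annotated exons, which understates genes with many little-used exons.

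**Figure D1:**
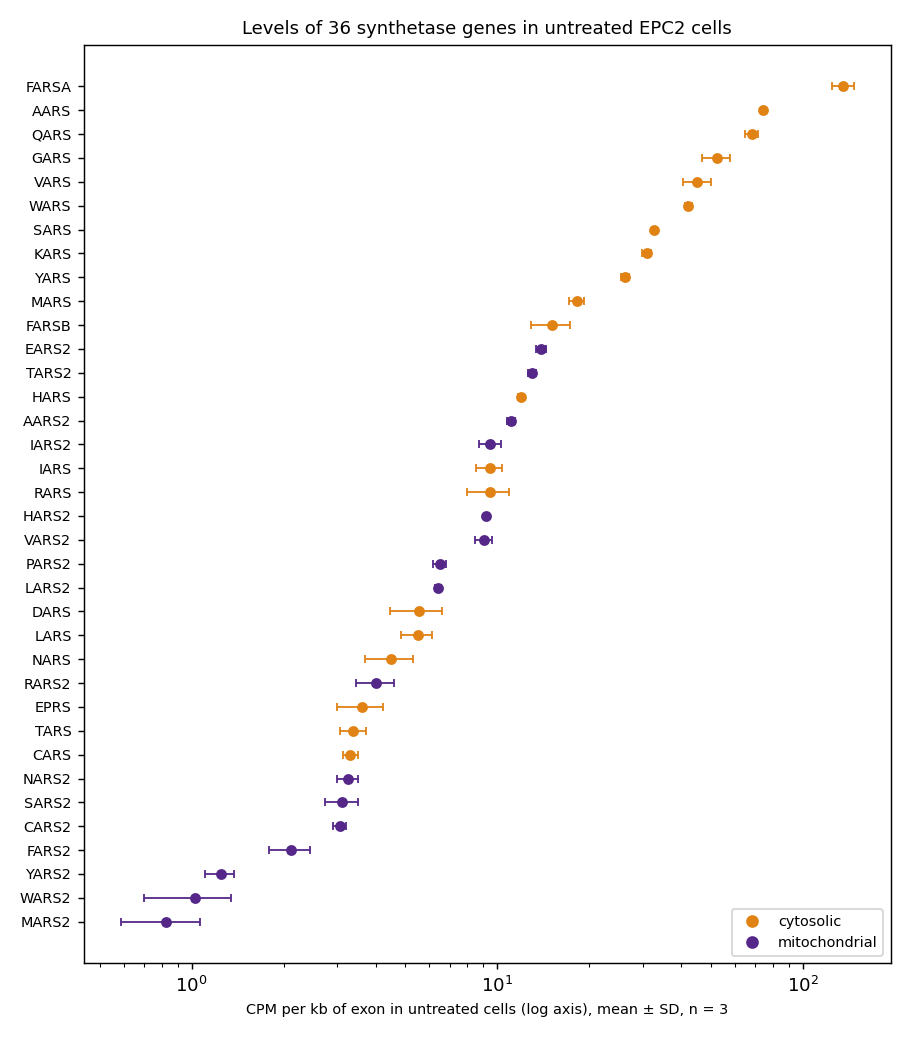
Mean CPM per kilobase of exon in untreated cells for the 36 synthetase genes, on a log axis, with bars of 1 SD (n = 3) and colours for cytosolic and mitochondrial enzymes. FARSA lies highest at 136.1 and MARS2 lowest at 0.827 CPM per kb, and the 11 highest genes are cytosolic.

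The comparison of empty vector with untreated cells asks what the transfection procedure did without FOXF1. Of the 20 cytosolic synthetase genes, 12 were higher in empty vector cells and 4 were lower, whereas of the 16 mitochondrial ones 1 was higher and 1 was lower. These calls used edgeR's quasi-likelihood test with Benjamini-Hochberg adjustment over all 16366 genes and an adjusted p below 0.05. Over all genes tested, 10.2% were called higher and 9.37% lower. The median log2 fold change was 0.27 over the cytosolic genes and -0.015 over the mitochondrial genes, beside 0.04 over all genes tested. Without the TMM factors that correct libraries for composition, the medians were 0.52 over the cytosolic and 0.23 over the mitochondrial genes, and with offsets for GC content and length the cytosolic median was 0.14. Cytosolic transcripts together summed to 2976 ± 80.7 CPM in FOXF1 plasmid cells, 2965 ± 84.3 CPM in empty vector cells and 2747 ± 59.7 CPM in untreated cells. Mitochondrial ones summed to 460.9 ± 2.5 CPM in FOXF1 plasmid cells, 472.3 ± 12.4 CPM in empty vector cells and 471.9 ± 7.47 CPM in untreated cells (SD, n = 3 each).

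**Figure D2:**
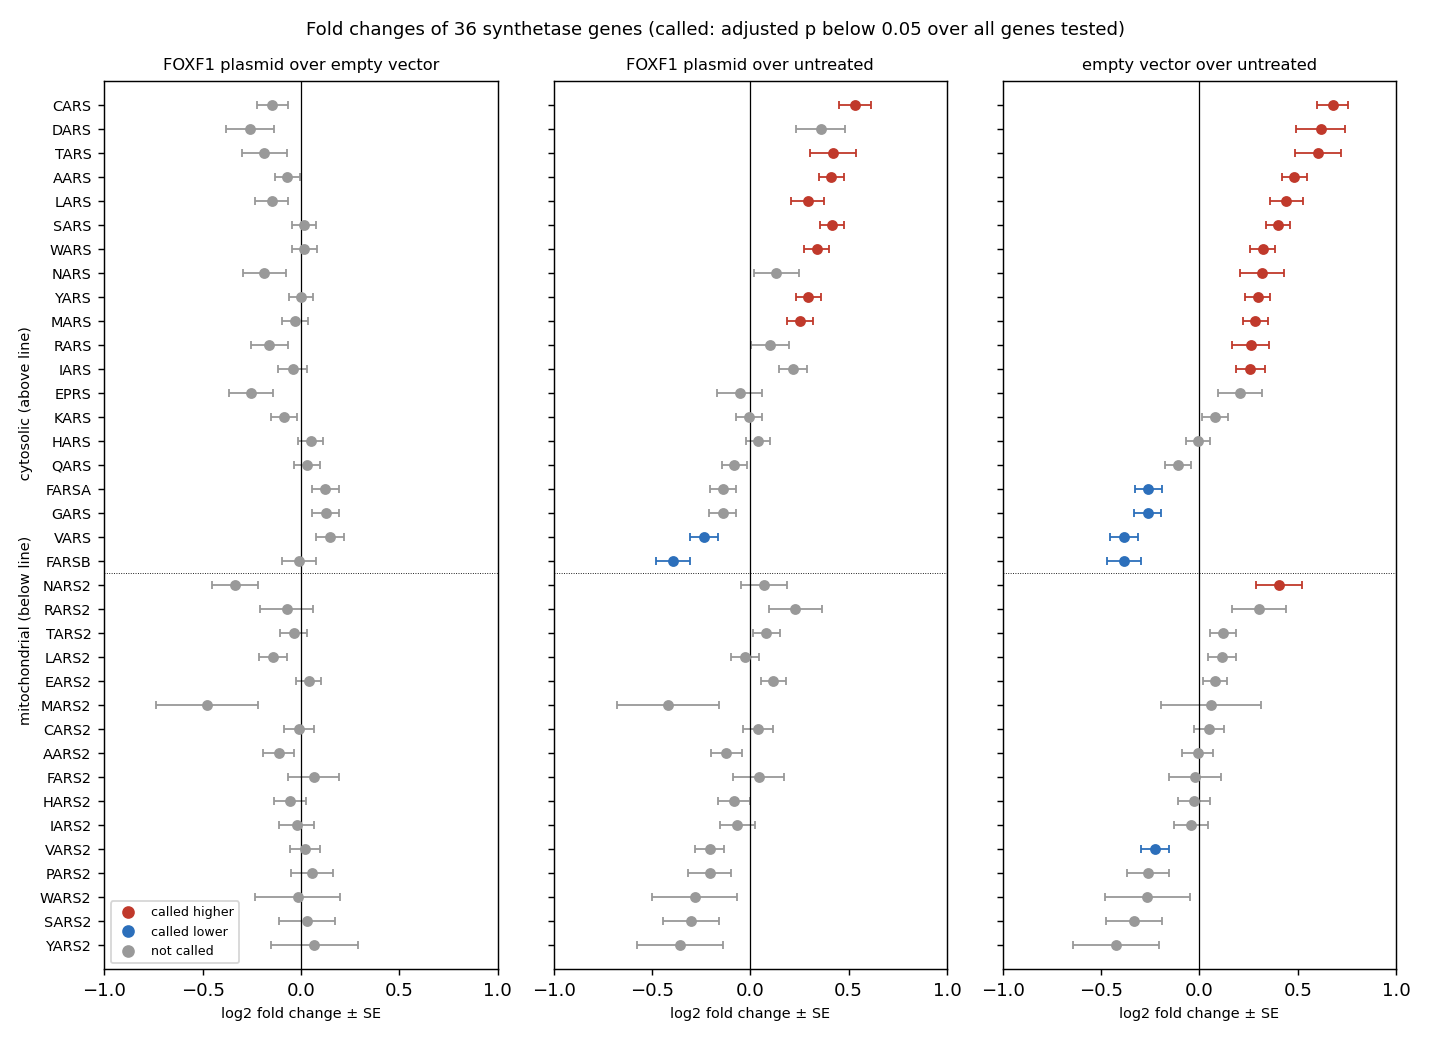
Log2 fold changes of the 36 synthetase genes, from left to right in FOXF1 plasmid over empty vector, FOXF1 plasmid over untreated and empty vector over untreated cells, with bars of 1 standard error; red genes were called higher, blue ones lower and grey ones not called at an adjusted p below 0.05. CARS lies highest among the cytosolic genes against untreated cells, at 0.53 and 0.68, and 0 genes are coloured in the left panel.

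Among the cytosolic genes that were higher, CARS, the cysteine enzyme (ENSG00000110619, chromosome 11, 3000922 to 3057613 on the minus strand of GRCh38), had the largest change. It stood at 43.9, 49.2 and 51.0 CPM in FOXF1 plasmid cells, 55.8, 55.0 and 48.6 CPM in empty vector cells and 31.5, 32.9 and 35.2 CPM in untreated cells. Every transfected library was above every untreated one, and its log2 fold change in empty vector against untreated cells was 0.68 ± 0.08 (SE; edgeR, adjusted p = 3.35e-07). Its window holds TGATGCAA across the start site.

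DARS, the aspartate enzyme of the multisynthetase complex (ENSG00000115866, chromosome 2, 135906677 to 135986100, minus strand), had 26.4, 26.0 and 33.0 CPM in FOXF1 plasmid cells, 26.6, 37.7 and 37.8 CPM in empty vector cells and 17.3, 23.5 and 25.7 CPM in untreated cells. The lowest empty vector library was close to the highest untreated one, without overlap. The log2 fold change was 0.62 ± 0.13 (SE; edgeR, adjusted p = 0.000614), and with offsets for GC content and length it was 0.39 (adjusted p = 0.00400). TARS, the threonine enzyme (ENSG00000113407, chromosome 5, 33440696 to 33469539, plus strand), had 26.9, 20.4 and 30.2 CPM in FOXF1 plasmid cells, 25.4, 33.8 and 28.9 CPM in empty vector cells and 17.1, 20.4 and 20.5 CPM in untreated cells. All empty vector libraries were above the untreated ones, while the second FOXF1 plasmid library fell among them, and the log2 fold change in empty vector against untreated cells was 0.60 ± 0.12 (SE; edgeR, adjusted p = 0.000327).

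AARS, the most abundant of the genes that were higher (ENSG00000090861, chromosome 16, 70252295 to 70289543, minus strand), had 421.8, 446.7 and 462.2 CPM in FOXF1 plasmid cells, 494.3, 463.1 and 439.8 CPM in empty vector cells and 329.2, 334.0 and 336.7 CPM in untreated cells. The untreated libraries lay close to each other and below all the rest, and the log2 fold change was 0.48 ± 0.06 (SE; edgeR, adjusted p = 2.51e-06). LARS, the leucine enzyme (ENSG00000133706, chromosome 5, 146113038 to 146182660, minus strand), had 55.8, 53.0 and 54.8 CPM in FOXF1 plasmid cells, 52.9, 62.8 and 65.9 CPM in empty vector cells and 39.2, 49.5 and 45.0 CPM in untreated cells. The groups did not overlap with the untreated libraries, and the log2 fold change was 0.44 ± 0.08 (SE; edgeR, adjusted p = 0.000297), or 0.24 with offsets for GC content and length (adjusted p = 0.00507). SARS, the serine enzyme (ENSG00000031698, chromosome 1, 109213918 to 109238169, plus strand), had 163.1, 169.1 and 168.1 CPM in FOXF1 plasmid cells, 173.5, 159.7 and 161.6 CPM in empty vector cells and 126.6, 125.2 and 123.0 CPM in untreated cells. Both transfected groups lay above the untreated cells with a wide gap, and the log2 fold change was 0.40 ± 0.06 (SE; edgeR, adjusted p = 1.87e-05).

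The other 6 cytosolic genes that were higher had smaller log2 fold changes by the same test. They were 0.32 for WARS, the tryptophan enzyme, which interferon gamma is known to induce, 0.32 for NARS, the asparagine enzyme, and 0.30 for YARS, the tyrosine enzyme. They were 0.28 for MARS, 0.26 for RARS and 0.26 for IARS, the methionine, arginine and isoleucine enzymes of the complex. CARS, AARS, DARS, TARS, LARS, SARS, WARS, YARS and MARS were called under each of the 19 alternatives run. The NARS and RARS calls rested near the threshold, with adjusted p of 0.0425 and 0.0483, and the NARS libraries overlapped between empty vector and untreated cells. NARS was no longer called without untreated replicate 1 or 3, empty vector replicate 2 or 3, or FOXF1 plasmid replicate 3, with log2 fold changes of 0.19 to 0.45 over all libraries left out in turn. It was also not called with DESeq2, RLE factors, only the compared groups, or offsets for GC content and length (0.18, adjusted p = 0.175). RARS lost its call without untreated replicate 1 or 3, any 1 empty vector replicate, or FOXF1 plasmid replicate 1 or 2, with 0.19 to 0.39 over the libraries left out, and with DESeq2, RLE factors or offsets for GC content and length (0.066, adjusted p = 0.66). GC content was 40.6% in DARS, 41.0% in RARS, 41.4% in LARS and 43.2% in IARS, beside 53.0% in CARS and 53.3% in AARS. It was 44.1% in TARS and 44.7% in NARS. FARSB, which was called lower, had 41.6%, and EPRS, which was not called, had 42.3%. The part of GC content in these calls was not tested. IARS lost its call without untreated replicate 1 (0.17, adjusted p = 0.144) and with offsets for GC content and length (0.09, adjusted p = 0.313).

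The 4 cytosolic genes that were lower in empty vector cells were FARSB, VARS, FARSA and GARS. FARSB, the beta subunit of the phenylalanine enzyme (ENSG00000116120, chromosome 2, 222570536 to 222656337, minus strand), had 35.8, 39.3 and 41.5 CPM in FOXF1 plasmid cells, 37.2, 38.5 and 41.6 CPM in empty vector cells and 47.3, 59.6 and 46.1 CPM in untreated cells. All transfected libraries lay below all untreated ones, and the log2 fold change in empty vector against untreated cells was -0.38 ± 0.09 (SE; edgeR, adjusted p = 0.00191). VARS, the valine enzyme (ENSG00000204394, chromosome 6, 31777518 to 31795953, minus strand), had 241.3, 238.6 and 221.5 CPM in FOXF1 plasmid cells, 227.6, 199.8 and 206.2 CPM in empty vector cells and 308.9, 261.1 and 256.1 CPM in untreated cells. Neither transfected group overlapped with the untreated one, in which replicate 1 stood highest, and the log2 fold change was -0.38 ± 0.07 (SE; edgeR, adjusted p = 0.000251).

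FARSA, the alpha subunit, was lower as well, with a log2 fold change of -0.26 ± 0.07 (SE; edgeR, adjusted p = 0.00645), and GARS, the glycine enzyme, with -0.26 ± 0.07 (SE; adjusted p = 0.00657). Thus the calls for both subunits of the phenylalanine enzyme had the same direction. With offsets for GC content and length, FARSB was at -0.57, GARS at -0.36, VARS at -0.35 and FARSA at -0.19, all still called lower. FARSA was not called without untreated replicate 1 (-0.20, adjusted p = 0.0638), and GARS was not called without untreated replicate 2 (-0.18, adjusted p = 0.0922) or empty vector replicate 2 (-0.22, adjusted p = 0.0571). The remaining 4 cytosolic genes did not pass the test: EPRS had a log2 fold change of 0.20, KARS, the lysine enzyme, 0.08, HARS, the histidine enzyme, -0.008, and QARS -0.11, of which HARS and QARS turned positive without a composition factor.

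**Figure D3:**
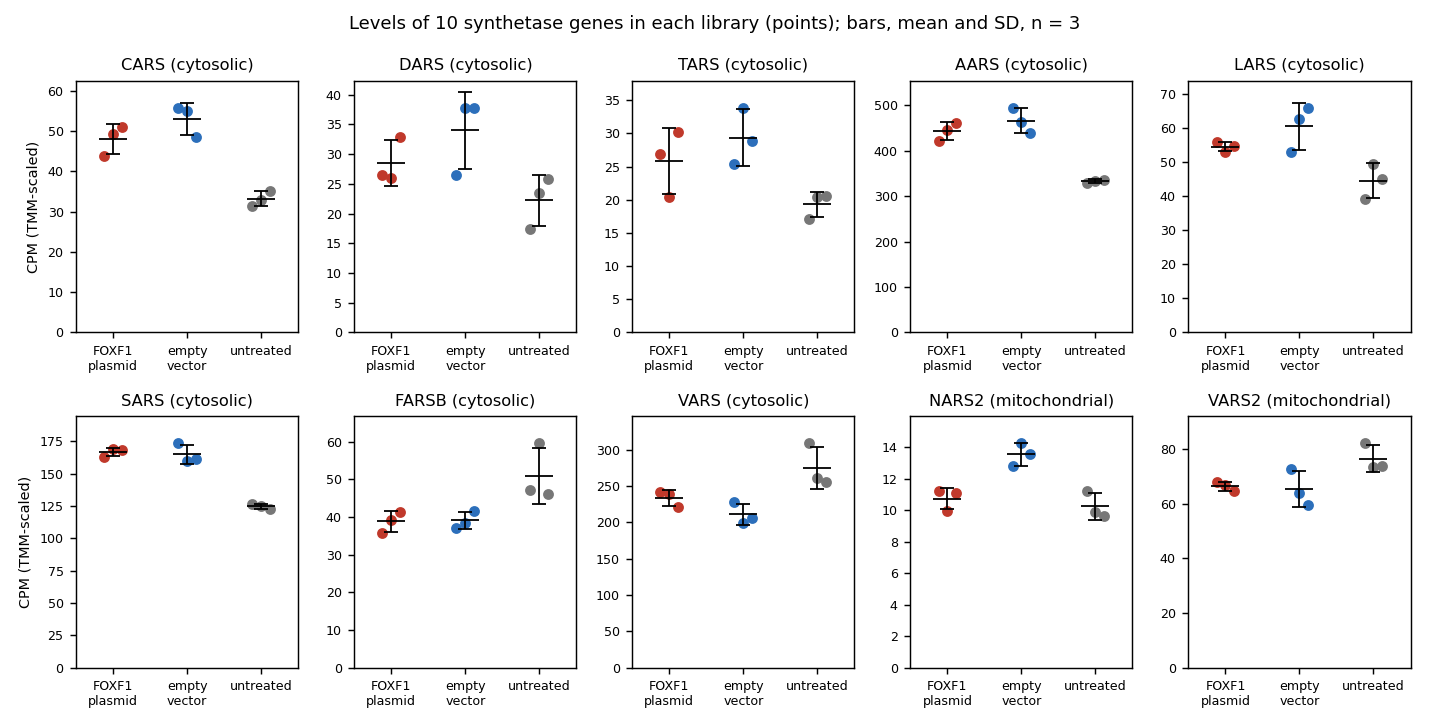
CPM in each library for the 8 cytosolic and 2 mitochondrial synthetase genes with the largest called changes in empty vector against untreated cells, with FOXF1 plasmid, empty vector and untreated cells from left to right; points are libraries, and bars are the group mean and SD (n = 3). CARS, AARS and SARS show every transfected library above every untreated one, and FARSB and VARS show the opposite.

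Split by assembly, 5 of the 8 cytosolic enzymes of the multisynthetase complex (DARS, IARS, LARS, MARS and RARS) were higher in empty vector cells and 0 were lower. EPRS, KARS and QARS were not called. Of the 12 cytosolic enzymes outside the complex, 7 were higher and 4 were lower. The shares over all genes tested were 10.2% higher and 9.37% lower. The medians were 0.26 within the complex and 0.31 outside it. With offsets for GC content and length, RARS and IARS in the complex and NARS outside it lost their calls. Without those offsets, all 6 genes whose windows hold TGATGCAA were among those called higher. Of the 10 cytosolic genes whose windows lack it, 3 were higher, 3 lower and 4 not called. GARS, which matched only TGATGNAA, was lower. The cytosolic genes without a window were DARS, LARS and YARS, called higher, and VARS, called lower. In FOXF1 plasmid against untreated cells IARS and NARS, whose windows hold TGATGCAA, were not called. The part of these letters in the changes was not tested.

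Of the mitochondrial enzymes, NARS2, which charges the asparagine tRNA (ENSG00000137513, chromosome 11, 78435961 to 78574874, minus strand), was the only one called higher. It had 11.2, 9.94 and 11.1 CPM in FOXF1 plasmid cells, 12.8, 14.2 and 13.6 CPM in empty vector cells and 11.2, 9.89 and 9.64 CPM in untreated cells. The empty vector libraries stood above both other groups, and the log2 fold change in empty vector against untreated cells was 0.40 ± 0.12 (SE; edgeR, adjusted p = 0.0130). The call was lost without untreated replicate 2 (0.37, adjusted p = 0.0582), untreated replicate 3 (0.35, adjusted p = 0.0635) or empty vector replicate 2 (0.37, adjusted p = 0.0739), and with offsets for GC content and length (0.23, adjusted p = 0.125).

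VARS2, the valine enzyme of mitochondria (ENSG00000137411, chromosome 6, 30908242 to 30926459, plus strand), was the only one called lower. It had 67.9, 66.7 and 64.5 CPM in FOXF1 plasmid cells, 72.8, 63.8 and 59.7 CPM in empty vector cells and 82.1, 73.5 and 73.9 CPM in untreated cells. The highest empty vector library was just below the lowest untreated one, and the log2 fold change was -0.23 ± 0.07 (SE; edgeR, adjusted p = 0.0279), or 0.02 without a composition factor. Without untreated replicate 1 (-0.18, adjusted p = 0.141), empty vector replicate 2 (-0.21, adjusted p = 0.111) or empty vector replicate 3 (-0.16, adjusted p = 0.176) it was not called. Without empty vector replicate 1, RARS2 was called higher (0.43, adjusted p = 0.0192), and PARS2 (-0.33, adjusted p = 0.0366) and SARS2 (-0.42, adjusted p = 0.0393) were called lower.

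The other 14 mitochondrial genes were not called. The positive log2 fold changes were 0.30 for RARS2, 0.12 for TARS2, 0.11 for LARS2, 0.08 for EARS2, 0.06 for MARS2 and 0.05 for CARS2, the arginine, threonine, leucine, glutamate, methionine and cysteine enzymes. The negative ones were -0.42 for YARS2, -0.33 for SARS2, -0.27 for WARS2 and -0.26 for PARS2, the tyrosine, serine, tryptophan and proline enzymes. The rest lay close to 0, with -0.04 for IARS2, -0.03 for HARS2, -0.02 for FARS2 and -0.008 for AARS2, and these 4 turned positive without a composition factor.

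These directions depended on how libraries were scaled. With library totals alone and no composition factor, the median over all genes in empty vector against untreated cells moved to 0.29, with 35.0% of genes called higher and 2.07% lower. On that scale 16 cytosolic genes were higher and 0 lower, and 8 mitochondrial genes were higher and 0 lower. Relative to that median shift, FARSA (-0.014), FARSB (-0.14), GARS (-0.019) and VARS (-0.14) remained below the median gene but were no longer called. The share of mitochondrially encoded reads, given above, differed between these groups, and with those genes left out as well the median over all genes was 0.12.

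The comparison of FOXF1 plasmid with untreated cells asks what FOXF1 and the transfection did together. It shares its untreated libraries with the comparison above, so the results of both are not independent. Of the 20 cytosolic genes, 8 were higher in FOXF1 plasmid cells (AARS, CARS, LARS, MARS, SARS, TARS, WARS and YARS) and 2 were lower (FARSB and VARS). Over all genes tested, 4.63% were called higher and 3.89% lower. The median log2 fold change was 0.17 over the cytosolic genes (0.32 without a composition factor) and -0.074 over the mitochondrial ones (0.075 without that factor), beside 0.016 over all genes tested.

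The largest were CARS with a log2 fold change of 0.53 ± 0.08 (SE; edgeR, adjusted p = 3.55e-05), SARS with 0.42 ± 0.06 (adjusted p = 2.82e-05), TARS with 0.42 ± 0.12 (adjusted p = 0.0209) and AARS with 0.41 ± 0.06 (adjusted p = 5.88e-05). WARS stood at 0.34, YARS at 0.30, LARS at 0.29 and MARS at 0.25. FARSB was at -0.39 ± 0.09 (adjusted p = 0.00371) and VARS at -0.24 ± 0.07 (adjusted p = 0.0366). AARS, CARS, SARS, WARS and YARS were called under each of the 19 alternatives. Only 5 cytosolic genes were called higher without untreated replicate 1, and 5 without FOXF1 plasmid replicate 3. LARS was lost without untreated replicate 1 or 3 or any 1 FOXF1 plasmid replicate, MARS without untreated replicate 1 or FOXF1 plasmid replicate 2 or 3, and TARS without untreated replicate 1 or FOXF1 plasmid replicate 1 or 3. VARS lost its call without untreated replicate 1 or any 1 FOXF1 plasmid replicate, and FARSB without untreated replicate 2 (-0.28, adjusted p = 0.0659). Without a composition factor neither was called, with -0.085 for VARS (adjusted p = 0.379) and -0.24 for FARSB (adjusted p = 0.0822).

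The cytosolic genes not called in FOXF1 plasmid against untreated cells were DARS (0.36, adjusted p = 0.0750), IARS (0.22, adjusted p = 0.0601), NARS (0.13), RARS (0.10), HARS (0.04), KARS (-0.008), EPRS (-0.05), QARS (-0.08), FARSA (-0.14) and GARS (-0.14). The 5 negative ones, KARS, EPRS, QARS, FARSA and GARS, were positive without a composition factor. Of the 16 mitochondrial genes, 0 were called in either direction by edgeR, DESeq2 or limma-voom. There were 2 with an unadjusted p below 0.05, VARS2 (-0.21) and SARS2 (-0.30), and the share of all genes at that threshold is not given here. The mitochondrial log2 fold changes ran between -0.42 for MARS2, a gene of 1.87 ± 0.547 CPM in FOXF1 plasmid cells and 2.497 ± 0.727 CPM in untreated cells, and 0.23 for RARS2. NARS2 was at 0.07. Within the multisynthetase complex 2 of 8 enzymes, LARS and MARS, were higher and 0 lower, and outside it 6 of 12 were higher and 2 lower. The shares over all genes tested were 4.63% higher and 3.89% lower.

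The comparison of FOXF1 plasmid with empty vector cells asks what FOXF1 added to the transfection. Of the 36 synthetase genes, 0 passed the test in either direction by edgeR, and 0 by DESeq2 or limma-voom. Over all genes tested, 0.0550% were called. The median log2 fold change was -0.038 over the cytosolic genes and -0.020 over the mitochondrial ones, beside -0.014 over all genes.

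An unadjusted p below 0.05 was reached by 4 members. NARS2 had the smallest (edgeR, unadjusted p = 0.00719, adjusted p = 0.376), with a log2 fold change of -0.34 ± 0.12 (SE) and no overlap between the groups, as the values above show. EPRS (-0.26) had 19.3, 18.6 and 19.1 CPM in FOXF1 plasmid cells against 19.4, 26.3 and 22.3 CPM in empty vector cells, where replicate 1 nearly touched the FOXF1 plasmid libraries. DARS stood at -0.26 and VARS at 0.15, both with overlapping libraries. The share of all genes with an unadjusted p below 0.05 is not given here, so these 4 are not set against it.

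The size of change these libraries leave room for differed by abundance. It holds only for the FOXF1 levels reached here, 367, 184 and 141 reads in the FOXF1 plasmid libraries. The 95% interval of the log2 fold change in FOXF1 plasmid against empty vector cells was -0.20 to 0.06 for AARS, -0.10 to 0.14 for SARS and -0.30 to 0.007 for CARS. It was -0.56 to -0.11 for NARS2 and -0.98 to 0.03 for MARS2. The NARS2 interval is not adjusted for the choice of the member with the smallest p (edgeR, adjusted p = 0.376). For the abundant AARS and SARS both bounds were smaller in size than the changes of 0.40 to 0.48 seen in the transfected groups against untreated cells, whereas for MARS2 the interval was wide.

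Each amino acid whose cytosolic and mitochondrial enzymes both belong to the members gave a ratio within each library, which needs no scaling between libraries. There were 17 such pairs, with EPRS set against EARS2 and PARS2, and FARSA and FARSB each against FARS2. The ratio of cytosolic to mitochondrial counts per kilobase was higher in empty vector than in untreated cells in 12 pairs and lower in 5, with a median log2 difference of 0.31 (range -0.36 to 0.74). In FOXF1 plasmid against untreated cells the counts were also 12 and 5, with a median of 0.29, and in FOXF1 plasmid against empty vector cells 7 were higher and 10 lower, with a median of -0.023. With 3 libraries against 3, a two-sided exact permutation test cannot go below p = 0.1. Against untreated cells, FARSB to FARS2 was lower without overlap in empty vector (-0.36) and FOXF1 plasmid cells (-0.44). VARS to VARS2 was lower without overlap in empty vector cells (-0.15), while TARS to TARS2 (0.48) and IARS to IARS2 (0.31) were higher. In FOXF1 plasmid against empty vector cells, MARS to MARS2 (0.48) and NARS to NARS2 (0.145) did not overlap. MARS2 had only 47 to 126 reads.

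The serine pair SARS to SARS2 had ratios of 18.1, 16.3 and 17.3 in FOXF1 plasmid cells, 16.2, 20.8 and 15.96 in empty vector cells and 9.29, 11.1 and 11.2 in untreated cells. The transfected groups did not overlap with the untreated one, and the log2 difference of empty vector against untreated cells was 0.74 (exact permutation p = 0.1, two-sided). SARS2 is a gene of 285 to 404 reads whose annotated span overlaps MRPS12, of 2185 to 3161 reads, by 349 bases. The tyrosine pair YARS to YARS2 had ratios of 30.8, 35.7 and 33.2 in FOXF1 plasmid cells, 34.5, 32.7 and 37.3 in empty vector cells and 19.4, 21.4 and 22.9 in untreated cells. Its groups were likewise apart, with a log2 difference of 0.72 (exact permutation p = 0.1). YARS2 is a gene of only 70 to 106 reads. Its annotated span overlaps DNM1L, of 82 to 158 reads, by 18161 bases on the opposite strand.

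The cysteine pair CARS to CARS2 had ratios of 1.35, 1.56 and 1.68 in FOXF1 plasmid cells, 1.74, 1.77 and 1.53 in empty vector cells and 0.982, 1.08 and 1.21 in untreated cells. Per kilobase, therefore, both genes stood close to each other in untreated cells and the cytosolic one was ahead in every transfected library, with a log2 difference of 0.63 in empty vector against untreated cells (exact permutation p = 0.1). The tryptophan pair WARS to WARS2 had ratios of 52.5, 62.5 and 80.3 in FOXF1 plasmid cells, 73.9, 61.9 and 54.1 in empty vector cells and 44.5, 30.7 and 57.2 in untreated cells. These overlapped, with a log2 difference of 0.55 (exact permutation p = 0.2), and WARS2 averaged 3.23 ± 0.499 CPM in FOXF1 plasmid cells, 3.27 ± 0.578 CPM in empty vector cells and 3.93 ± 1.24 CPM in untreated cells. The alanine pair AARS to AARS2 had ratios of 9.56, 9.76 and 9.66 in FOXF1 plasmid cells, 9.32, 8.80 and 10.2 in empty vector cells and 6.83, 6.65 and 6.55 in untreated cells. Its groups were apart and tight, with a log2 difference of 0.50 (exact permutation p = 0.1). Raw p-values are given; adjusted over the 17 pairs, none could pass 0.05, since the smallest possible p is 0.1.

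**Figure D4:**
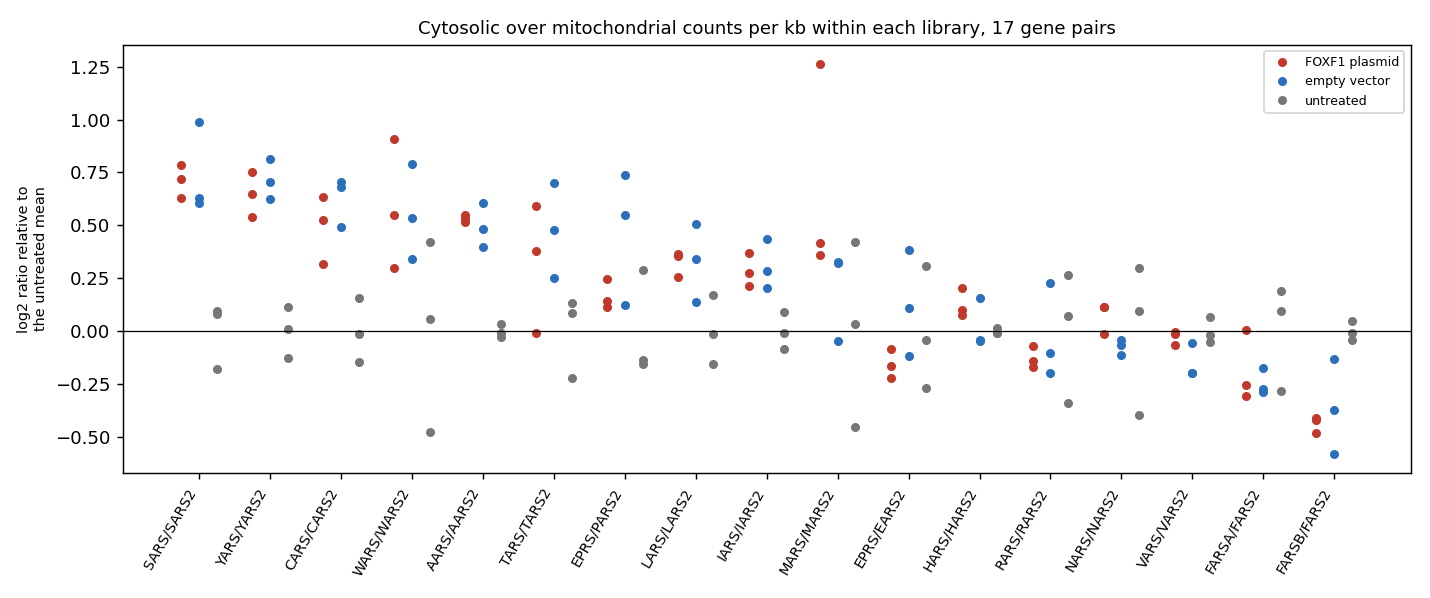
Log2 ratio of cytosolic to mitochondrial counts per kilobase in each library for 17 gene pairs, relative to the mean of the untreated libraries, with FOXF1 plasmid, empty vector and untreated cells from left to right. In the SARS to SARS2, YARS to YARS2, CARS to CARS2 and AARS to AARS2 pairs every transfected library lies above every untreated one, while the WARS to WARS2 and HARS to HARS2 libraries overlap between empty vector and untreated cells.

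The histidine enzymes HARS and HARS2 are neighbours that face away from each other on chromosome 5. Their ratio was 1.39, 1.495 and 1.37 in FOXF1 plasmid cells, 1.26, 1.26 and 1.45 in empty vector cells and 1.31, 1.29 and 1.29 in untreated cells, with a log2 difference of 0.023 in empty vector against untreated cells (exact permutation p = 1). The empty vector libraries overlapped with both other groups. Those of FOXF1 plasmid cells lay above the untreated ones, with a log2 difference of 0.13 (exact permutation p = 0.1). Neither gene was called in any comparison with composition factors. The 84 bases between the RefSeq starts are shown because both genes are read outward from them; they have a GC content of 59.5% and 0 matches to TGATGNAA. They are printed in lower case on the plus strand of GRCh38.p14, with no letters in capitals.
HARS to HARS2, chr5:140691371-140691454: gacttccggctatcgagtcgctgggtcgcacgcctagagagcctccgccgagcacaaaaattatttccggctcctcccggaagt

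Genes that work beside the synthetases were read from short lists. These lists were chosen with earlier results of these data known, so their counts are not independent support. Over all genes tested, 10.2% were called higher and 9.37% lower in empty vector against untreated cells. In FOXF1 plasmid against untreated cells the shares were 4.63% and 3.89%. Among 5 factors and targets of the stress response, all 5 were higher both in empty vector and in FOXF1 plasmid cells than in untreated cells. ATF4 had 287.9, 312.4 and 311.8 CPM in FOXF1 plasmid cells, 333.6, 309.5 and 296.3 CPM in empty vector cells and 204.8, 222.4 and 222.6 CPM in untreated cells. Every transfected library exceeded every untreated one, and the log2 fold change in empty vector against untreated cells was 0.53 ± 0.07 (SE; edgeR, adjusted p = 7.49e-07). In that comparison TRIB3, a pseudokinase, was at 0.73, ASNS, asparagine synthetase, at 0.73, CHAC1, which breaks down glutathione, at 0.70, and DDIT3, the factor CHOP, at 0.86. DDIT3 overlaps MARS by 982 bases on the opposite strand, with 157 to 401 reads against 4256 to 6791 for MARS.

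Of the 3 scaffolds of the multisynthetase complex, 0 were higher and AIMP2 was lower in empty vector than in untreated cells (-0.41 ± 0.08; edgeR, adjusted p = 0.000357), while AIMP1 (0.46) and EEF1E1 (0.39) were not called. Among 4 genes of mitochondrial transamidation and formylation, GATB (0.61 ± 0.10, adjusted p = 6.35e-05) and GATC (0.33 ± 0.11, adjusted p = 0.0243), subunits of the enzyme that makes mitochondrial glutaminyl-tRNA, were higher. QRSL1 (0.38), their catalytic partner, and MTFMT (0.08), the formyltransferase, were not called. A further 6 aminoacylation and proofreading genes gave 2 higher, PSTK (0.75, adjusted p = 0.0471) and DTD1 (0.25, adjusted p = 0.0389), and 0 lower. In 9 genes of tRNA maturation and export 1 was higher, the tRNA exporter XPOT (0.55 ± 0.10, adjusted p = 0.000129), and 0 lower. That 1 of 9 is near the share of all genes called higher, 10.2%. In 5 genes of mitochondrial tRNA modification 0 were called by edgeR, and 0 had an unadjusted p below 0.05.

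In FOXF1 plasmid against untreated cells, GATB (0.48, adjusted p = 0.00245) and XPOT (0.38, adjusted p = 0.0118) were again higher by the same test. AIMP2, GATC, PSTK and DTD1 were not called there. In FOXF1 plasmid against empty vector cells 0 genes of these lists were called by edgeR, with 2 at an unadjusted p below 0.05, AIMP2 (0.18) and ASNS (-0.16). The share of all genes at that unadjusted threshold is not given here.

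Annotated neighbours limit a few of the values, since the strand setting of the counting is not given in the sources used here. VARS2 shares 5865 bases with GTF2H4 on the same strand, HARS2 shares 639 with ZMAT2 on the same strand, and HARS and HARS2 share 437 on opposite strands. KARS and TERF2IP share 858 bases, YARS and S100PBP 1387, WARS and WDR25 388, and EARS2 and UBFD1 370, on opposite strands. The annotated pseudogenes of the members held 0 to 6 reads in any library.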

How the data were processed

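The authors' deposited file holds raw read counts per gene for 9 libraries of polyadenylated RNA, with no normalization. Per the submitters' processing notes the tools were bcl2fastq, STAR 2.5.2b and HTSeq with GRCh38; the sources used here do not give strand setting, trimming or annotation release. The test was edgeR 4.0.16 (R 4.3.3). Its filterByExpr function kept genes (minimum count 10), TMM factors corrected for library composition, and the fit had a mean per group over all 9 libraries (glmQLFit, glmQLFTest). P-values were adjusted by the Benjamini-Hochberg method over 16366 genes, with a threshold of 0.05. CPM are counts per 1000000 of the TMM-scaled total, except in the cell marker sums and medians, which use library totals. Standard errors were taken as the absolute log2 fold change over the root of F, and 95% intervals use them with a normal quantile. Such intervals are somewhat narrower than the test implies. For LARS2 in FOXF1 plasmid against empty vector cells the interval was -0.28 to -0.005, with an unadjusted p of 0.0513 (edgeR). Levels per kilobase used the exon union of GENCODE 29 (GRCh38). Replicates of a group differed by more than counting noise (chi-square per degree of freedom 8.60 to 23.2). The floor of 3 counts equals 0.0751 to 0.0872 CPM and covers counting error only. P-values measure the spread between the labelled triplicates.

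Values per library are given for up to 8 called cytosolic and 8 called mitochondrial members with the largest change in empty vector against untreated cells, and for the 5 pairs with the largest difference in log2 fold change; other members are named with a fold change. EPRS and HARS to HARS2 were added after their values were seen. Members and lists were chosen with earlier results of these data known, and 1 gene of the lists is not reported here. The fit was tested on simulated data. Alternatives were DESeq2 1.42.0, limma-voom (limma 3.58.1), RLE factors, no composition factor (with and without mitochondrially encoded genes), other filters, only the compared groups, a replicate block, offsets for GC content and length, and each library left out.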

Additional observations from a re-analysis of the deposited data

How the results depend on the processing

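In empty vector against untreated cells, 12 cytosolic genes were called higher in the fit as reported and 9 to 13 with each library left out, and 4 lower (3 to 4 with a library left out). Without a composition factor 0 cytosolic genes were lower, 8 mitochondrial genes higher and 0 lower, and the medians were 0.52 for cytosolic and 0.23 for mitochondrial genes. HARS (0.24), QARS (0.14), AARS2 (0.24), HARS2 (0.22), VARS2 (0.02), FARS2 (0.22) and IARS2 (0.21) changed sign there. Without that factor and without mitochondrially encoded genes, 4 mitochondrial genes were higher and 0 lower, with medians of 0.35 and 0.063. Offsets for GC content and length gave 0 mitochondrial genes higher and 2 lower, and a cytosolic median of 0.14. DESeq2 called 2 mitochondrial genes lower, and its mitochondrial median and that with RLE factors were both -0.044. With each library left out, 0 to 2 mitochondrial genes were higher and 0 to 3 lower, and the medians ran from 0.19 to 0.32 for cytosolic and from -0.073 to 0.045 for mitochondrial genes. In FOXF1 plasmid against untreated cells the fit without a composition factor called 0 cytosolic genes lower and 2 mitochondrial ones higher, with medians of 0.32 and 0.075; without mitochondrially encoded genes as well, the mitochondrial median was -0.044. No filter on low counts, only the compared groups, and the GC and length offsets each called 1 mitochondrial gene lower, and the offsets gave a mitochondrial median of -0.13. With a library left out, 5 to 10 cytosolic genes were higher and 1 to 2 lower, 0 to 1 mitochondrial genes were lower, and the medians ran from 0.084 to 0.26 and from -0.12 to -0.029. In FOXF1 plasmid against empty vector cells 0 synthetase genes were called under any alternative, and without a composition factor the medians were -0.14 and -0.12, or -0.072 for mitochondrial genes without mitochondrially encoded genes. The causes of these differences were not tested.

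The correlations of same-numbered libraries ran from -0.09 to 0.084 and gave no sign that replicate numbers pair the samples. Differently numbered libraries were not set beside them, so pairing cannot be decided from these values. With a replicate block, 10 cytosolic genes were higher and 2 lower in FOXF1 plasmid against untreated cells, and 12 and 4 in empty vector against untreated cells. Of 2029 single-gene fold changes under alternatives, 54 lost a call, 36 gained one and 5 changed sign with a call in at least 1 of the fits compared, and a further 93 changed sign without a call in either. For the pairs, length cancels from a difference between groups, so counts in place of counts per length test nothing. Low counts of MARS2, WARS2 and YARS2, between 1.87 and 3.93 CPM on average, limit what could be detected for them.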
